A study of Homo sapiens with 6 samples.

Results

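The genes described here are the platelet-derived growth factor (PDGF) ligands PDGFA, PDGFB, PDGFC and PDGFD, the PDGF receptors PDGFRA and PDGFRB, and the vascular endothelial growth factor (VEGF) ligands VEGFA, VEGFB and VEGFC. They were picked by gene name, and all 9 were found among the 58676 genes measured. Of the 9 genes, 7 had a mean level of at least 0.5 FPKM over the 6 samples and were tested, together with 13745 genes in all. FPKM is the number of reads on a gene scaled to the length of the gene and to the depth of the sample. The 6 samples are cultures of DCIS.COM, an established human basal-type breast cell line that grows as ductal carcinoma in situ (DCIS) in mice. In 3 of them the cells carried the lentiviral PLKO.1 vector with an shRNA against BCL9 (BCL9 KD), and in the other 3 the same vector with a non-silencing shRNA (NS control). Each replicate was its own T75 flask in DMEM/F12 with 5% horse serum. All 6 samples come from a single cell line, and a single BCL9 shRNA is described, so effects of that shRNA on other genes cannot be told apart from the loss of BCL9.

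PDGF ligands are secreted as dimers and bind receptor tyrosine kinases that are best known on fibroblasts, pericytes and smooth muscle cells. PDGFA and PDGFB are processed inside the cell by furin-like proteases, while PDGFC and PDGFD are secreted with an extra domain that has to be cut off before they can bind a receptor. VEGFA is the main growth signal of blood vessel endothelium, VEGFB binds the receptor FLT1, and VEGFC drives the growth of lymphatic vessels through FLT4. In breast tumours, epithelial cells are a known source of these ligands, and the receptors are best known on the stroma and vessels around them. BCL9 is a coactivator of β-catenin, and the comparison of BCL9 KD with NS control asks which transcripts depend on it.

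The sequencing depth was 15222452 to 22712638 reads on genes in NS control and 15665714 to 26949026 in BCL9 KD. BCL9 itself was at 6.25, 6.24 and 5.34 FPKM in NS control (here and below in the order of the replicate numbers) and at 2.86, 2.78 and 2.59 FPKM in BCL9 KD. The mean fell from 5.94 ± 0.522 to 2.74 ± 0.139 FPKM without overlap, by 0.99 on the log2 scale (SE 0.0933, limma adjusted p = 0.00773). The call was lost without NS control replicate 2 (limma adjusted p = 0.0636), without BCL9 KD replicate 2 (limma adjusted p = 0.06) and without BCL9 KD replicate 3 (limma adjusted p = 0.07), with the log2 fold change between −1.06 and −0.954 over the 6 fits with a replicate left out. NS control replicate 1 stood apart. Over 13577 genes, its deviation from the mean of the 6 samples had a Pearson correlation of 0.481 with the GC content of the transcripts, against −0.226 to 0.054 in the other 5 samples. PDGFA, PDGFB and VEGFB have transcripts of 57.6%, 60.6% and 62.2% GC, against a median of 47.7% over all tested genes, and their values are therefore given below also without that sample or with a GC correction. Fold changes are on the scale of log2(FPKM + 0.5), BCL9 KD minus NS control, which understates changes of weakly expressed genes. Values with ± are mean and SD (n = 3 in each group), and SE is the standard error of the fitted log2 fold change.

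PDGFB is the ligand that binds both PDGF receptors and is known for recruiting pericytes to vessels. It was at 14.0, 14.1 and 13.1 FPKM in NS control and at 8.11, 8.33 and 8.93 FPKM in BCL9 KD. Every BCL9 KD sample was below every NS control sample, and the gap between the groups was larger than the spread within either. The mean fell from 13.7 ± 0.578 to 8.45 ± 0.424 FPKM (SD, n = 3), a ratio of 0.616. On the log2 scale PDGFB fell by 0.67 (SE 0.0734, limma adjusted p = 0.0109). The values rested on 748 to 1195 reads in NS control and 526 to 844 reads in BCL9 KD. PDGFB (ENSG00000100311) lies on the minus strand of chromosome 22, from 39223359 to 39244751 (hg38). The log2 fold change was −0.59 with a GC correction (limma adjusted p = 0.00987) and −0.65 without NS control replicate 1 (limma adjusted p = 0.0174). The direction was the same in all 19 settings, the reported one included, with log2 fold changes from −0.71 to −0.589. The call was lost without NS control replicate 2 (limma adjusted p = 0.0802) and without BCL9 KD replicate 2 (limma adjusted p = 0.0863). It was also lost without BCL9 KD replicate 3 (limma adjusted p = 0.0714) and with the replicate numbers as a block (limma adjusted p = 0.0788). In these 3 fits with a replicate left out 5 to 13 of all tested genes passed, and with the block 0 did.

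PDGFB was the single gene of the 7 tested that passed the threshold, and none passed it in the upward direction. Over all 13745 tested genes 807, or 5.87%, passed, of which 2.91% were lower and 2.96% higher in BCL9 KD. Among the 7 tested ligands 4 had a log2 fold change below 0 and 3 above. Their median was −0.0844, against 0.0403 over all tested genes. At an unadjusted p under 0.05 there were 3 of the 7 ligands and 3775 of all tested genes. The groups did not overlap for 3 of the 7, with PDGFA and PDGFB lower and VEGFC higher. That was so for 34.2% of all tested genes, for 16.4% with lower and 17.8% with higher values in BCL9 KD.

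**Figure D1:**
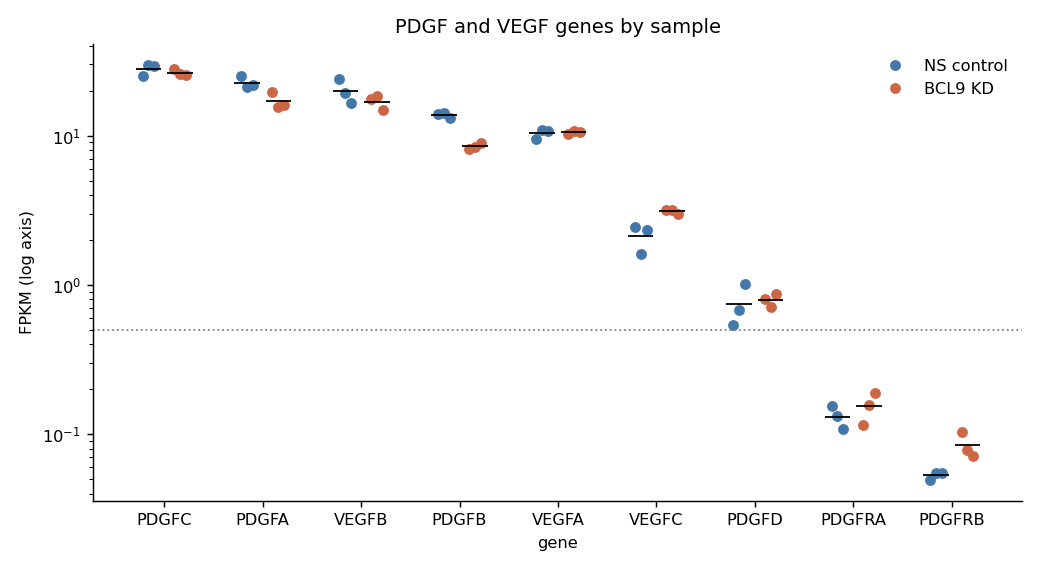
FPKM of the 9 genes in each sample, on a log axis, with blue points for NS control, orange points for BCL9 KD and a black line at each group mean. The dotted line marks the 0.5 FPKM needed for testing. The 3 BCL9 KD points of PDGFB (8.11 to 8.93 FPKM) lie below its 3 NS control points (13.1 to 14.1 FPKM), while PDGFRA and PDGFRB lie below the dotted line in every sample.

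PDGFA, which forms dimers with itself or with PDGFB and acts through PDGFRA, was at 24.9, 21.0 and 21.7 FPKM in NS control and at 19.7, 15.5 and 16.0 FPKM in BCL9 KD. The groups did not overlap, although the nearest samples, at 19.7 and 21.0 FPKM, were close. The mean was 22.5 ± 2.1 FPKM in NS control and 17.1 ± 2.28 FPKM in BCL9 KD, and the log2 fold change of −0.39 (SE 0.114) did not pass (limma adjusted p = 0.085). The transcript is GC-rich, and the difference was −0.31 with the GC correction (limma adjusted p = 0.104) and −0.32 without NS control replicate 1 (limma adjusted p = 0.132). BCL9 KD replicate 1 was the highest of its group, and without it PDGFA passed (log2 fold change −0.50, limma adjusted p = 0.0483). PDGFA (ENSG00000197461) is on the minus strand of chromosome 7, from 497258 to 520296 (hg38).

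PDGFC, which acts through PDGFRA once its extra domain is removed, was at 25.0, 29.8 and 29.4 FPKM in NS control and at 27.9, 25.7 and 25.6 FPKM in BCL9 KD. The groups overlapped, with means of 28.1 ± 2.62 and 26.4 ± 1.34 FPKM and the difference did not pass (log2 fold change −0.08, limma adjusted p = 0.554). Without NS control replicate 1, its lowest control, the log2 fold change of PDGFC was −0.16 (limma adjusted p = 0.168), and it was between −0.163 and −0.0404 over the 6 fits with a replicate left out. PDGFC (ENSG00000145431) lies on the minus strand of chromosome 4, from 156760454 to 156971394 (hg38). PDGFD, the ligand of PDGFRB that is also secreted latent, was at 0.537, 0.684 and 1.02 FPKM in NS control and at 0.809, 0.713 and 0.868 FPKM in BCL9 KD. These levels rested on 52 to 82 reads per sample, and the BCL9 KD values fell inside the range of the controls. Its log2 fold change was 0.07 (limma adjusted p = 0.816), and it was −0.0488 without NS control replicate 1 and −0.0019 with the GC correction. PDGFD (ENSG00000170962) lies on the minus strand of chromosome 11, from 103907186 to 104164379 (hg38).

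The balance among the PDGF ligands was compared within each sample, which does not depend on how the samples were scaled. PDGFB made up 21.7%, 21.6% and 20.1% of the summed FPKM of the 4 PDGF ligands in NS control and 14.3%, 16.6% and 17.4% in BCL9 KD. The share was lower in every BCL9 KD sample, with means of 21.1% ± 0.91 and 16.1% ± 1.58 and a difference of −5.01 percentage points (two-sided exact permutation p = 0.1). This p of 0.1 is the smallest that 3 samples against 3 can give. PDGFC made up 38.8%, 45.4% and 45.1% in NS control and 49.4%, 51.1% and 49.7% in BCL9 KD, again without overlap. The PDGFC level itself was 28.1 and 26.4 FPKM with overlapping groups, so this share restates the lower summed level of the ligands and is no separate result. The PDGFA share was 34.6% ± 3.52 and 32.3% ± 2.19 (exact permutation p = 0.5). The log2 ratio of PDGFB to PDGFA was −0.833, −0.569 and −0.733 in NS control and −1.28, −0.901 and −0.845 in BCL9 KD. Its means differed by −0.298 (two-sided exact permutation p = 0.1), and by −0.161 without BCL9 KD replicate 1, which had the lowest ratio. The summed PDGF ligand level was 64.5, 65.5 and 65.2 FPKM in NS control and 56.6, 50.2 and 51.4 FPKM in BCL9 KD. All 3 knockdown samples were below all controls (two-sided exact permutation p = 0.1). The PDGFB share, the ratio and this sum are computed from the ligand levels given above and are no separate results either. They are not corrected for GC content, which was 60.6% for PDGFB and 43.7% for PDGFC.

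**Figure D2:**
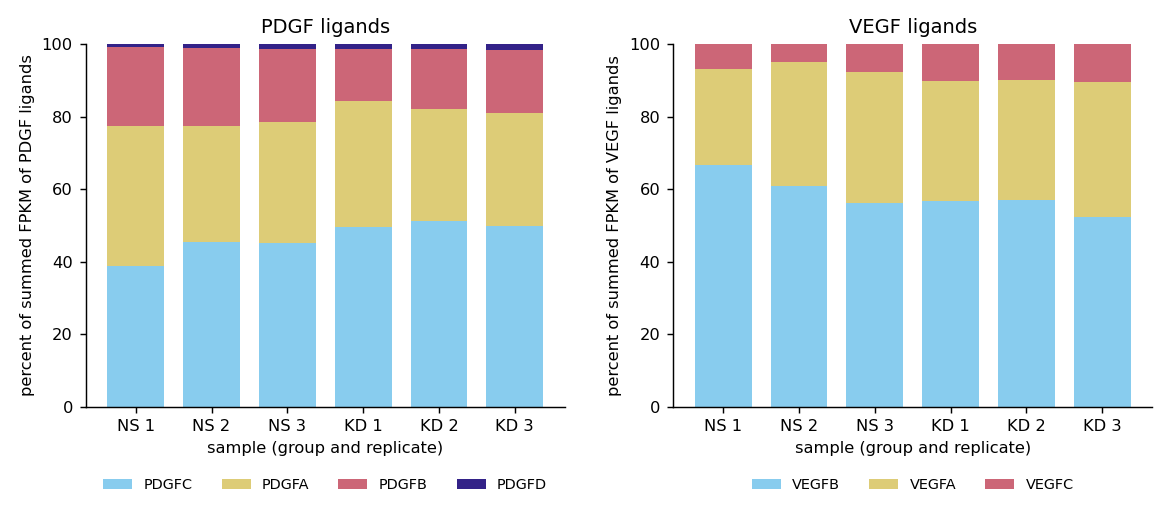
Stacked bars give the percent of the summed FPKM that each PDGF ligand (left) and each VEGF ligand (right) took in each of the 6 samples. The PDGFB segment is 20.1% to 21.7% of the NS control bars and 14.3% to 17.4% of the BCL9 KD bars, and the VEGFC segment is 5.08% to 7.87% and 9.78% to 10.5%.

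VEGFA was at 9.51, 10.9 and 10.7 FPKM in NS control and at 10.2, 10.7 and 10.5 FPKM in BCL9 KD. The knockdown samples lay inside the range of the controls, and the means were 10.4 ± 0.744 and 10.5 ± 0.244 FPKM. The fitted difference was 0.02 on the log2 scale (SE 0.0775, limma adjusted p = 0.891), on 2348 to 4161 reads per sample. Its sign depended on the setting, at −0.0227 after median-of-ratios scaling, at −0.0054 after quantile normalization and at −0.0386 without NS control replicate 1. Over all settings it was between −0.0386 and 0.0968. VEGFA (ENSG00000112715) lies on the plus strand of chromosome 6, from 43770184 to 43786487 (hg38).

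VEGFB was at 23.9, 19.3 and 16.6 FPKM in NS control and at 17.5, 18.4 and 14.8 FPKM in BCL9 KD. The groups overlapped, and the 3 control samples differed more among themselves than the group means of 19.9 ± 3.7 and 16.9 ± 1.87 FPKM did. The log2 fold change was −0.22 (limma adjusted p = 0.358) and −0.0837 without NS control replicate 1, which held the highest value of this GC-rich transcript. It was −0.34 without NS control replicate 3, the lowest control, and −0.13 without BCL9 KD replicate 3, and none of the 19 settings passed. VEGFB (ENSG00000173511) lies on the plus strand of chromosome 11, from 64234538 to 64238793 (hg38).

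VEGFC was at 2.44, 1.61 and 2.33 FPKM in NS control and at 3.18, 3.16 and 2.98 FPKM in BCL9 KD. All 3 knockdown samples were above all controls, with close agreement in BCL9 KD and a low value in NS control replicate 2. The means were 2.13 ± 0.449 and 3.11 ± 0.109 FPKM, on 79 to 134 and 113 to 206 reads. The log2 fold change of 0.47 (SE 0.142) did not pass (limma adjusted p = 0.0923). It was 0.55 and passed with the GC correction (limma adjusted p = 0.0446), a setting chosen after the data were seen that passes 12.3% of all tested genes. With voom on the reads recovered from the FPKM, which passes 10.2% of all tested genes, it was 0.57 (limma adjusted p = 0.0736). Without NS control replicate 2 it was 0.32 (limma adjusted p = 0.191). VEGFC (ENSG00000150630) lies on the minus strand of chromosome 4, from 176683538 to 176792727 (hg38).

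Within the VEGF ligands, VEGFC made up 6.79%, 5.08% and 7.87% of the summed FPKM in NS control and 10.3%, 9.78% and 10.5% in BCL9 KD. These shares did not overlap (two-sided exact permutation p = 0.1). They rest on the long VEGFA gene length in the deposited table, and with the lengths of MANE Select transcripts described below they were 3.75% ± 0.83 and 5.56% ± 0.155, also without overlap. The VEGFA share was 26.5%, 34.3% and 36.1% in NS control and 33.1%, 33.1% and 37.2% in BCL9 KD, which overlapped (exact permutation p = 0.8). The difference in the VEGFA share was 2.19 percentage points, and −0.7 without NS control replicate 1. The summed level of the 3 VEGF ligands was 32.4 ± 3.17 FPKM in NS control and 30.5 ± 2.0 FPKM in BCL9 KD (exact permutation p = 0.5).

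**Figure D3:**
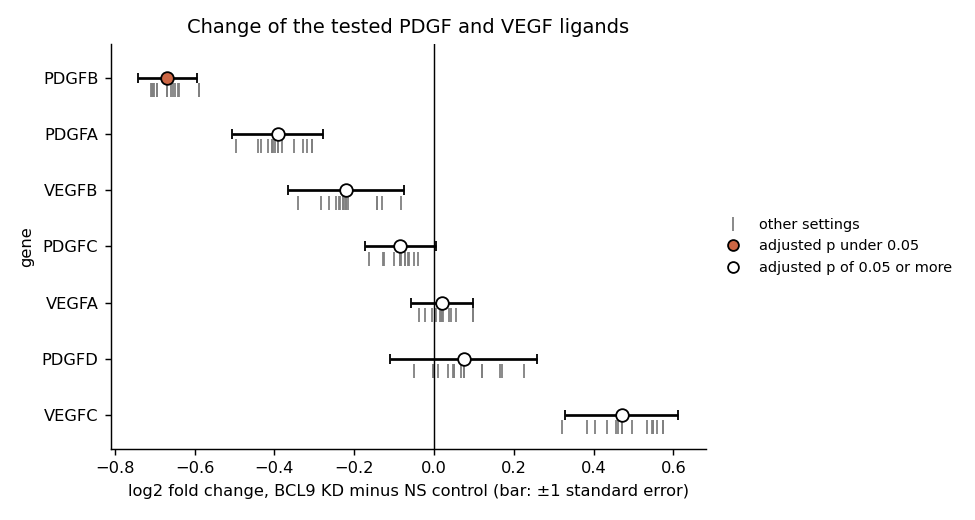
Log2 fold change of the 7 tested ligands, BCL9 KD minus NS control, with bars of 1 standard error, and grey ticks for the other settings tried. The filled point, PDGFB, passed at a limma adjusted p under 0.05, and the ticks of VEGFA and PDGFD lie on both sides of 0.

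Both PDGF receptors were far below their ligands. PDGFRA, the receptor of PDGFA and PDGFC, was at 0.154, 0.132 and 0.108 FPKM in NS control and at 0.116, 0.156 and 0.19 FPKM in BCL9 KD. The groups overlapped, on 76 reads in all NS control samples (95% Poisson interval 59.9 to 95.1) and 90 in all BCL9 KD samples (72.4 to 111). PDGFRB, the receptor of PDGFB and PDGFD, was at 0.0494, 0.0554 and 0.0552 FPKM in NS control and at 0.103, 0.078 and 0.0716 FPKM in BCL9 KD. These values did not overlap, but they came from 8, 8 and 6 reads against 13, 15 and 8. The summed reads were 22 (13.8 to 33.3) and 36 (25.2 to 49.8), whose intervals overlap. The intervals cover counting error only and not the spread between flasks, and the reads carry no molecular identifiers. The untested differences on the log2 scale were 0.05 for PDGFRA and 0.08 for PDGFRB. When voom was run on genes with a mean of at least 5 reads, the log2 fold change was 0.18 for PDGFRA (limma adjusted p = 0.721) and 0.61 for PDGFRB (limma adjusted p = 0.337). No difference was detected in either receptor at these read numbers. PDGFRA (ENSG00000134853) lies on the plus strand of chromosome 4, from 54229097 to 54298247, and PDGFRB (ENSG00000113721) on the minus strand of chromosome 5, from 150113837 to 150155872 (hg38). Bulk RNA does not tell fewer cells with a transcript from less of it per cell.

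By FPKM, the order of the means in NS control was PDGFC, PDGFA, VEGFB, PDGFB, VEGFA, VEGFC, PDGFD, PDGFRA and PDGFRB. In BCL9 KD, PDGFB and VEGFA were in the opposite order, with PDGFB above VEGFA in 3 of 3 control samples and below it in 3 of 3 knockdown samples. PDGFA and VEGFB had overlapping ranges in both groups, and the ranges of all other neighbours were separate. The order depends on the gene length. VEGFA had a length of 14431 bases in the deposited table, against 3609 bases in its MANE Select transcript, a representative transcript per gene. With MANE Select lengths, an alternative chosen after the data were seen, VEGFA was first at 41.4 ± 2.98 FPKM in NS control and 41.9 ± 0.977 FPKM in BCL9 KD. PDGFC followed at 34.3 ± 3.2 and 32.3 ± 1.64 FPKM and PDGFA at 34.1 ± 3.18 and 25.9 ± 3.46 FPKM, nearly level in NS control. In NS control replicate 1 PDGFA was above PDGFC, at 45.4% and 36.9% of the PDGF ligands. VEGFB was at 17.1 and 14.5 FPKM and PDGFB at 13.8 and 8.53 FPKM. The VEGFA share of the VEGF ligands was then 68.2% and 70.2%, and the PDGFB share of the PDGF ligands 16.7% and 12.7%. The ratio between the groups within a gene does not depend on this length.

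Overlapping genes took almost no reads. PDGFB overlaps AL031590.1, PDGFC overlaps RP11-154F14.2, RP11-612J15.1 and RP11-154F14.3, PDGFD overlaps DDI1 and RP11-617B3.2, VEGFA overlaps RP1-261G23.7, and VEGFC overlaps an antisense gene. All of these lie on the opposite strand, with 0 to 2 reads in each sample. RP11-231C18.3 covers 66176 bases of PDGFRA on the same strand and had 0 reads in every sample. How a read that matched both genes was counted, and whether strand was used, are not given in the sources used here. The low level of PDGFRA carries that uncertainty, and so do the levels of the other genes with an overlap.

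The promoter sequences are shown because the tested ligands whose groups did not overlap were PDGFA, PDGFB and VEGFC. A RefSeq promoter window (GRCh38.p14) was matched for 6 of the 9 genes, PDGFA, PDGFD, PDGFRA, PDGFRB, VEGFB and VEGFC, and not for PDGFB, PDGFC and VEGFA. Each window searched is the 250 bases before the RefSeq start nearest to the deposited one. Its bases upstream of the deposited gene are printed from 5′ to 3′, with GC boxes (GGGCGG on either strand) in capitals, for PDGFA at chr7:520297-520476 and VEGFC at chr4:176792923-176793172, both on the minus strand.
PDGFA: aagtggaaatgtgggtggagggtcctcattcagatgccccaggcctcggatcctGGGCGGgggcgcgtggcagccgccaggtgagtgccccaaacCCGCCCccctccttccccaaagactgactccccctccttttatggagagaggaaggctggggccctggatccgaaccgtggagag
VEGFC: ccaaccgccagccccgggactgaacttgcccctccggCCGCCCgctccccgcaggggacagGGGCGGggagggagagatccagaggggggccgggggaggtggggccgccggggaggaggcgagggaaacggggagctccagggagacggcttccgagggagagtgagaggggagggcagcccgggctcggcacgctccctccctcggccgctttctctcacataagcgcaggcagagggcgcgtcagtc
The PDGFA stretch of 180 bases holds 2 GC boxes of the 4 in its window, and the VEGFC stretch of 250 bases holds 2. GC boxes occurred in 42.6% of 35116 RefSeq promoter windows. The other counts were 6 in VEGFB, 1 each in PDGFD and PDGFRB and 0 in PDGFRA. Windows of other RefSeq starts held 9 GC boxes in PDGFA and 2 in PDGFRA. The GC content was 68.8% in the window of PDGFA, 74.0% in VEGFC, 82.8% in VEGFB, 69.2% in PDGFD, 58.4% in PDGFRB and 46.8% in PDGFRA, against a median of 58.0% over all windows. A motif of the STAT family, TTCNNNGAA, occurred in 6.57% of all windows, and the TCF core CTTTGA, bound by the partners of β-catenin, in 11.2%, counting both strands. Neither was found in the 6 windows. PDGFA has other RefSeq starts, and 1 CTTTGA lay in the windows of those. A match of letters is not evidence of binding, and its lack is no evidence against it.

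A wider set of 61 genes of the same pathways was described in groups, as other VEGF ligands and receptors, proteases that activate the ligands with a cofactor, signalling proteins next to the receptors, hypoxia-inducible factors (HIF) with their regulators, and HIF targets in hypoxia. Of these 50 were tested and 7 passed, 14.0%, with 2 higher and 5 lower, against 5.87% of all tested genes. Their median log2 fold change was −0.0904. These lists were chosen with earlier results of these data known, so the count is a description.

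Among the other VEGF ligands and receptors, 1 of 7 genes was tested. NRP1, a co-receptor that binds VEGFA, was at 4.63, 5.35 and 5.18 FPKM in NS control and at 6.03, 5.86 and 5.86 FPKM in BCL9 KD, a log2 fold change of 0.21 that did not pass (limma adjusted p = 0.151). The receptors themselves were near 0. FLT1 had 1 read in 1 of the 6 samples, FLT4 also had 1 read in 1 sample, and KDR, the main receptor of VEGFA, had 3 to 16 reads per sample. The PDGF receptors were likewise counted below 0.2 FPKM in every sample. A count near 0 in these data need not mean that a transcript was absent, since PIK3R2, a broadly expressed subunit of PI3 kinase, had 0 to 1 reads per sample.

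Of 8 proteases that process these ligands and CCBE1, a secreted cofactor of the protease ADAMTS3, the 8 proteases were tested, and 1 passed. PLAT, the tissue plasminogen activator that removes the extra domain of PDGFC, was at 38.9, 38.5 and 40.8 FPKM in NS control and at 78.6, 82.4 and 81.9 FPKM in BCL9 KD. The groups were far apart, and PLAT rose 2.06-fold, from 39.4 ± 1.25 to 81.0 ± 2.06 FPKM (log2 fold change 1.03, SE 0.0618, limma adjusted p = 0.00269). It passed in 6 of 6 fits with a replicate left out and in 18 of 19 settings, and not with the replicate numbers as a block (limma adjusted p = 0.0656). PDGFC itself, the ligand PLAT acts on, had the log2 fold change of −0.08 given above. The median over the tested proteases was 0.05.

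Of 25 signalling proteins next to the receptors 23 were tested, with a median log2 fold change of −0.0262, and 3 passed. RASA1, a GTPase-activating protein that binds activated PDGFRB and switches RAS off, was at 10.6, 15.6 and 19.2 FPKM in NS control and at 35.7, 29.7 and 32.7 FPKM in BCL9 KD. It rose by 1.12 on the log2 scale (SE 0.2, limma adjusted p = 0.0328), and by 0.90 without NS control replicate 1, its lowest sample (limma adjusted p = 0.0223). SRC, a tyrosine kinase that docks on the PDGF receptors, was at 11.7, 9.77 and 9.92 FPKM in NS control and at 6.52, 6.56 and 6.66 FPKM in BCL9 KD, and it fell by 0.63 (SE 0.0875, limma adjusted p = 0.0187). STAT3, a transcription factor activated downstream of many receptors, was at 39.0, 33.1 and 31.1 FPKM in NS control and at 24.5, 22.9 and 22.0 FPKM in BCL9 KD, and it fell by 0.56 (limma adjusted p = 0.0325). The groups did not overlap for 9 of the 23, against 34.2% of all tested genes, and 5.87% of all tested genes passed. RASA1, SRC and STAT3, named because they passed, were among these 9. Each lost its call in all 3 fits without NS control replicate 2, BCL9 KD replicate 2 or BCL9 KD replicate 3, with limma adjusted p from 0.0827 for SRC to 0.159 for STAT3, and RASA1 also without BCL9 KD replicate 1 (limma adjusted p = 0.0625). With no filter on FPKM none of the 3 passed (limma adjusted p = 0.0982 for RASA1, 0.0508 for SRC and 0.085 for STAT3), and with no trend RASA1 (0.0536) and STAT3 (0.0548) did not.

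HIF factors are the known inducers of VEGFA when oxygen is low. Of 8 genes for them and their regulators 7 were tested, with a median log2 fold change of −0.1314, and 1 passed. EPAS1, which encodes the HIF subunit HIF-2α, was at 17.5, 16.7 and 15.3 FPKM in NS control and at 10.4, 9.73 and 9.36 FPKM in BCL9 KD. The groups did not overlap, and EPAS1 fell by 0.72 (SE 0.0808, limma adjusted p = 0.0117). HIF1A, named here after its values were seen, was at 34.5, 50.4 and 72.8 FPKM in NS control and at 82.7, 75.5 and 79.3 FPKM in BCL9 KD. The spread among the controls was wide, and its log2 fold change of 0.65 did not pass (limma adjusted p = 0.141). It was 0.38 without NS control replicate 1, the lowest control (limma adjusted p = 0.17), and 0.41 with the GC correction, while it was 0.91 and passed without NS control replicate 3, the highest control (limma adjusted p = 0.0317).

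Of 12 hypoxia target genes 11 were tested, 10 of them with a log2 fold change below 0, and 2 passed. The median over the 11 was −0.2184, against 0.0403 over all tested genes. CA9, a carbonic anhydrase and a classical hypoxia marker, was at 6.41, 6.1 and 6.29 FPKM in NS control and at 4.1, 3.76 and 3.94 FPKM in BCL9 KD, and it fell by 0.61 (limma adjusted p = 0.0132). BNIP3, a mitochondrial protein induced by hypoxia, was at 23.8, 25.0 and 24.7 FPKM in NS control and at 18.3, 19.6 and 18.9 FPKM in BCL9 KD, and it fell by 0.36 (limma adjusted p = 0.0318). VEGFA, a hypoxia target too, had the log2 fold change of 0.02 given above. The groups did not overlap for 6 of the 11, against 34.2% of all tested genes, and 5.87% of all tested genes passed. EPAS1, CA9 and BNIP3 lost their calls in the same 3 fits, without NS control replicate 2, BCL9 KD replicate 2 or BCL9 KD replicate 3, with limma adjusted p from 0.0802 for EPAS1 to 0.163 for BNIP3, and BNIP3 also without BCL9 KD replicate 1 (limma adjusted p = 0.0518). BNIP3 passed in 11 of 19 settings, and not with no filter (limma adjusted p = 0.0546) or no trend (0.057).

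**Figure D4:**
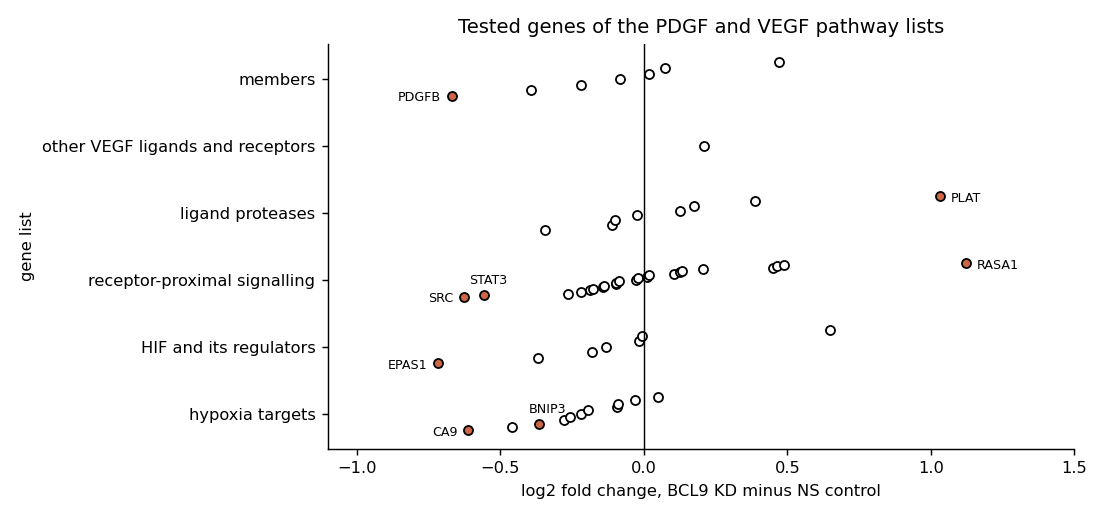
Log2 fold change, BCL9 KD minus NS control, of each tested gene of the 9 PDGF and VEGF genes (top) and of the 5 pathway lists. Filled, named points passed at a limma adjusted p under 0.05. PLAT and RASA1 are the named points above 0. Of the 11 hypoxia targets 10 lie below 0, with a median of −0.2184 against 0.0403 over all tested genes.

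The label of the cultures was checked against markers. Of 9 epithelial markers, most but not all of them basal, all were tested, and 0 passed in limma or with voom. Their summed level was 1600 to 1670 FPKM in NS control and 1640 to 1660 FPKM in BCL9 KD, led by KRT17 at 570 and 561 FPKM. At an unadjusted p under 0.05 there were 2, CDH1 with a log2 fold change of −0.16 and TP63 with 0.27. Markers of cells that carry the receptors were low. The 8 fibroblast and mural markers summed to 4.92 to 6.13 FPKM in NS control and 3.6 to 4.14 FPKM in BCL9 KD, and COL3A1 was at 0 in all samples. Most of that sum was CSPG4, at 4.11 ± 0.531 and 2.62 ± 0.408 FPKM (limma adjusted p = 0.0534). CSPG4 passed in 6 of 19 settings, with voom under either filter (limma adjusted p = 0.0245 and 0.0243), a mean of at least 1 FPKM (0.0471), the GC correction (0.0384), and without NS control replicate 3 (0.0398) or BCL9 KD replicate 1 (0.0477). The 6 endothelial markers summed to 1.9 to 2.45 FPKM in NS control and 3.18 to 4.0 FPKM in BCL9 KD. Nearly all of it was PECAM1, an adhesion molecule of endothelium and blood cells, which rose from 2.1 ± 0.328 to 3.45 ± 0.412 FPKM (limma adjusted p = 0.0477). PECAM1 lost its call in 5 of 6 fits with a replicate left out, all but that without NS control replicate 3, with limma adjusted p up to 0.186. It passed in 8 of 19 settings, and not with no filter (limma adjusted p = 0.127), median-of-ratios scaling (0.0665), quantile normalization (0.0863) or no trend (0.0632). CDH5, TEK, TIE1, VWF and ERG were each under 0.1 FPKM in every sample. The 6 blood cell and platelet markers summed to 0.828 to 1.17 and 1.34 to 1.79 FPKM, and CD14 was at 0.422 and 1.04 FPKM (limma adjusted p = 0.0811). Within these lists not every gene moved with the sum, with COL1A1 at 0.517 and 0.594 FPKM, TEK at 0.0719 and 0.00907 FPKM and ITGA2B at 0.481 and 0.335 FPKM in NS control and BCL9 KD. The part of these levels in the values of PDGFA, PDGFB and VEGFC was not tested.

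The genes whose levels were most like those of PDGFB over the 6 samples were RPL7L1 (Pearson r = 0.9971), ATXN1L (r = 0.997) and CLCN7 (r = 0.9967), among 11145 protein-coding genes. RPL7L1 fell by 0.38 on the log2 scale (limma adjusted p = 0.0275) and lost its call without NS control replicate 2 (limma adjusted p = 0.134), BCL9 KD replicate 2 or BCL9 KD replicate 3 (limma adjusted p = 0.153 for both). ATXN1L had a difference of −0.25 (limma adjusted p = 0.069) and CLCN7 of −0.28 (limma adjusted p = 0.0736). These correlations describe 6 points that fall into the same 2 groups, and 324 genes had an r above 0.95.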

How the data were processed

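RNA from 3 NS control and 3 BCL9 KD flasks of DCIS.COM cells was sequenced in paired-end libraries made with a NEBNext Ultra RNA kit. The authors aligned reads to hg38 with STAR and counted them with HTSeq 0.6.1 (submitters' processing notes), and they deposited FPKM values for 58676 genes beside the gene length used. The annotation release and the strand setting are not given in the sources used here. The study's methods mention 2 biological replicates per condition and the labels give 3. All 6 samples were used. FPKM multiplied by gene length gave whole reads for 100% of values within 0.1, hence the depths.

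Differences were tested with limma 3.58.1 (R 4.3.3) and its empirical Bayes trend, on log2(FPKM + 0.5), over genes with a mean of at least 0.5 FPKM, with Benjamini-Hochberg adjustment over all tested genes and a threshold of 0.05. Ratios and shares were compared by exact permutation in scipy 1.17.1 (Python 3.11). P-values measure the spread between flasks of 1 line. Alternatives were other added values, filters and scalings, no trend, voom, a replicate block and leaving out each replicate. Chosen after seeing the data were the GC correction (loess, span 0.3, GC of the longest transcript of GRCh37, known for 98.8% of tested genes), voom with at least 5 reads and MANE Select lengths. Replicates of a group had Pearson correlations of 0.964 to 0.987, and 0 columns were identical. The genes and lists were chosen with earlier results of these data known. Genes named are the 9 genes, BCL9, the genes of each pathway list that passed (or the most abundant one), the most abundant gene of each marker list and those at 0 in all samples, overlapping genes and the 3 genes most like PDGFB. Other genes given with values (HIF1A, FLT1, FLT4, KDR, CDH1, TP63, CDH5, TEK, TIE1, VWF, ERG, COL1A1, ITGA2B and PIK3R2) were chosen after their values were seen.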

Additional observations from a re-analysis of the deposited data

How the results depend on the processing

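The direction of PDGFA, PDGFB, PDGFC, VEGFB and VEGFC was the same under all 19 settings, and that of PDGFD and VEGFA was not. PDGFD was −0.0488 without NS control replicate 1 and −0.0019 with the GC correction, with or without the replicate block, and it ranged from −0.0488 to 0.2255 over the fits with a replicate left out. VEGFA was −0.0227 after median-of-ratios scaling, −0.0054 after quantile normalization and −0.0386 without NS control replicate 1, with a range of −0.0386 to 0.0543 over the fits with a replicate left out. The VEGFA share differed by −0.7 to 4.08 percentage points with a replicate left out. The number of all genes that passed, 807, was 142 with no filter, 536 with median-of-ratios scaling, 332 without the trend, 1403 with voom, 1357 with voom on genes with at least 5 reads, 1687 with the GC correction, and 5 to 1712 with a replicate left out. It was 12 without NS control replicate 2, 13 without BCL9 KD replicate 2 and 5 without BCL9 KD replicate 3. The number of the 7 tested ligands that passed, 1, was 2 with the GC correction (PDGFB and VEGFC) and 0 to 2 with a replicate left out. The number of pathway genes that passed, 7, was 3 with no filter, 4 without the trend, 11 with voom under either filter, and 1 to 12 with a replicate left out. With the replicate block 0 genes passed in limma (3235 at an unadjusted p under 0.05), and so 0 ligands and 0 pathway genes. With GC correction and replicate block together 171 genes and 4 pathway genes passed, PDGFB among the ligands (limma adjusted p = 0.0475). The labels share replicate numbers between groups. Deviations from the group means had correlations of −0.147, −0.0884 and −0.00287 between same-numbered samples. The deviations within a group sum to 0, so these values cannot show whether the samples were handled in pairs. The causes of the differences between settings were not tested. With 3 samples against 3, exact permutation cannot go below 0.1, and the reads limit PDGFD, PDGFRA and PDGFRB most.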
